A study of Mus musculus with 12 samples.

Results

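Glycolysis and gluconeogenesis were followed in 34 genes, chosen by symbol from a fixed list, of the 24062 genes counted. The list holds 3 glucose transporters, 17 enzymes of glycolysis from hexokinase to pyruvate kinase, 2 bifunctional PFKFB enzymes, 2 lactate dehydrogenases, 4 pyruvate dehydrogenase kinases and 6 enzymes of gluconeogenesis. All 34 symbols were in the files.

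RNA came from liver and from gastrocnemius, a calf muscle, of 6 female C57BL/6N mice on chow, 7.4 to 9.0 weeks old, with no treatment given in the labels. Of these mice, 3 were wild type (WT, animals 6, 8 and 9) and 3 carried R135W on both alleles of Mars2, which encodes the mitochondrial methionyl-tRNA synthetase (animals 5, 7 and 12). The labels name no promoter or Cre that would limit the allele to 1 tissue. Each of the 4 groups, liver WT, liver R135W, gastrocnemius WT and gastrocnemius R135W, holds 3 libraries, 1 per animal.

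Glycolysis splits glucose into pyruvate and yields ATP without oxygen, while gluconeogenesis runs back from lactate, pyruvate and amino acids to glucose through enzymes that bypass the irreversible steps. Most steps are served by isoenzymes from separate genes, which differ in affinity and in the signals that regulate them. The liver takes up glucose after a meal and releases it in fasting, and muscle burns glucose or passes it on as lactate.

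Stretches upstream of 6 start sites are shown because their genes carry the results below: Pck1, Pfkfb1, Pfkfb3 and Pkm for the differences by genotype, G6pc and Pgam2 as examples of a liver gene and a muscle gene. Sequences are from RefSeq on GRCm38.p6, which had entries for 33 of the 34 genes, with 52 start sites. Slc2a4 had no entry. Each is the 250 bases before a start, 5′ to 3′ on the gene's strand, and held no exon base of the count files' annotation. Capitals mark exact matches, on either strand, to the 5 strings of letters named after the sequences: a cAMP response element variant, the core of a hypoxia response element, an E-box, a partial HNF1 site and a TATA box. No printed match overlaps another.
Pck1, chr2:173152823-173153072, plus strand: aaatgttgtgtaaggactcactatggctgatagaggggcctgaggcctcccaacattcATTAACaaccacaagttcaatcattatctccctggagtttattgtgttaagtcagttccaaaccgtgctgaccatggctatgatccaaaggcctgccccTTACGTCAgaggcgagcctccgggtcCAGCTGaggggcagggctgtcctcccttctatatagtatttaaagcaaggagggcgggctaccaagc
Pfkfb1, chrX:150589666-150589915, plus strand: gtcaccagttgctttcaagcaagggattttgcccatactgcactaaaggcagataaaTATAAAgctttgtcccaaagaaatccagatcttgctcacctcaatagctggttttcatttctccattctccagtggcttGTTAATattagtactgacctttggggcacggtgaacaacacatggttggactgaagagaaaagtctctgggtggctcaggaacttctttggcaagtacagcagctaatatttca
Pfkfb3, chr2:11553930-11554179, minus strand: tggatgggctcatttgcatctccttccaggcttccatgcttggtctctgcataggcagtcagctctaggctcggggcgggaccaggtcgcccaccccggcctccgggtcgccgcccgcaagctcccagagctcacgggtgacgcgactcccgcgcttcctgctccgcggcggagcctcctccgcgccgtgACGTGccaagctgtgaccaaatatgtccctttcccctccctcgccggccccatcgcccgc
Pkm, chr9:59656977-59657226, plus strand: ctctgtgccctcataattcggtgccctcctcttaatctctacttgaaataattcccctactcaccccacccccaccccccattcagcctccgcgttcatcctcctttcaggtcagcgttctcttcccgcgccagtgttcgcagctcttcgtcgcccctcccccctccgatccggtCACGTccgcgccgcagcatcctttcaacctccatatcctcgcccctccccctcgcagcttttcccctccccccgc
G6pc, chr11:101367466-101367715, plus strand: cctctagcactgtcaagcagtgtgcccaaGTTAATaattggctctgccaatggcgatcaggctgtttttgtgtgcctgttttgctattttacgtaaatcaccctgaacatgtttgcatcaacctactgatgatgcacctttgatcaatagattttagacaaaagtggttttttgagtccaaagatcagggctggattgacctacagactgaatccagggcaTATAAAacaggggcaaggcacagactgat
Pgam2, chr11:5803797-5804046, minus strand: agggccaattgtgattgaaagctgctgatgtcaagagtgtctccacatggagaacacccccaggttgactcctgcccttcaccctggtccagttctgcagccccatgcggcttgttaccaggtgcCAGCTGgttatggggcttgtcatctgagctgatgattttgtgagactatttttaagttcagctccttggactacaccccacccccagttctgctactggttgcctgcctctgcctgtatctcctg

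Among the 52 start sites of these genes, the Pck1 window was the only one to hold the cAMP response element variant TTACGTCA, which 0.447% of 32851 RefSeq start sites held in windows of the same length. Its match began 93 bases before the start (first base at -93), with an E-box at -67 and a partial HNF1 site at -192. The hypoxia response core, ACGTG, was in 16 of the 52 windows, from 13 genes, which is 30.8% against 16.6% of all start sites. The printed windows of Pfkfb3 (-60) and Pkm (-75) held it. Some genes have other start sites, and those printed were picked, among windows without exon bases, with the matches known. The unprinted Pfkfb3 site held the core, and the unprinted Pkm site held an E-box and not the core. Of the 3 further Pfkfb1 sites, 1 held an E-box and the rest held none of these strings. The E-box, searched as CAGCTG, was in 17.3% of the windows against 13% of all start sites. The partial HNF1 site, searched as GTTAAT, was in 5.77% of the windows and in 6.43% of all. The TATA box, searched as TATAAA, was in 5.77% of the windows against 12.4% of all and was found in Pklr, Pfkfb1 and G6pc. The full cAMP response element TGACGTCA was in 1 window, that of Ldha, and in 1.55% of all start sites. A match is a string of letters and was not tested as a binding site.

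Depth was alike in the 4 groups, with total counts from 20751583 to 30460237 per library. The listed genes took 0.799% to 1.01% of all counts in liver and 4.5% to 4.95% in gastrocnemius. The tissue labels fit their markers: 8 hepatocyte markers summed to 95255 to 97917 CPM (counts scaled to library size) in WT liver and to 77734 to 86921 CPM in R135W liver, and 10 myofibre markers summed to under 1 CPM there and to 138310 CPM or more in gastrocnemius. Hepatocyte markers reached 43.0 CPM in the gastrocnemius library of R135W animal 12 and 0.460 to 7.72 CPM in the other 5 muscle libraries. Mars2 itself was at 2.29 to 3.27 CPM in liver WT and 2.37 to 3.94 CPM in liver R135W, at 10.5 to 12.9 CPM in gastrocnemius WT and 8.15 to 10.5 CPM in gastrocnemius R135W. A missense change does not show in gene counts, so these levels do not check the genotype labels. In whole tissue, fewer cells of a type and less RNA per cell cannot be told apart.

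Liver and muscle differed in their leading isoenzyme in most of the families compared. Levels are given as RPKM, counts scaled to exon length and to library size, so that genes can be set beside each other, and an isoenzyme's share is its part of the summed RPKM of its family in a library. In WT the leading isoenzyme differed between the tissues in 9 of 11 families, and only the lactate dehydrogenases, led by Ldha, and the PEP carboxykinases, led by Pck1, had the same leader. Of the 34 genes, 32 differed between the tissues in WT at an adjusted p under 0.05 (edgeR quasi-likelihood test with Benjamini-Hochberg adjustment over 15414 genes), 11 higher in liver and 21 higher in gastrocnemius. Across all tested genes the percentage called was 82.1, with 40.9 higher and 41.2 lower in liver, so a count near the whole list says little by itself. The median log2 difference, liver minus gastrocnemius, was -2.1 over the 34 genes and -0.004 over all tested genes. In R135W, 31 of 34 were called, 11 higher in liver and 20 higher in gastrocnemius, against a background of 82.1 percent with 41 higher and 41.1 lower. The 3 libraries of each tissue did not overlap for 31 of the 34 genes in WT and 32 in R135W, against 83.7 and 84 percent of all tested genes. The same 31 genes were called with the same direction in WT.

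**Figure D1:**
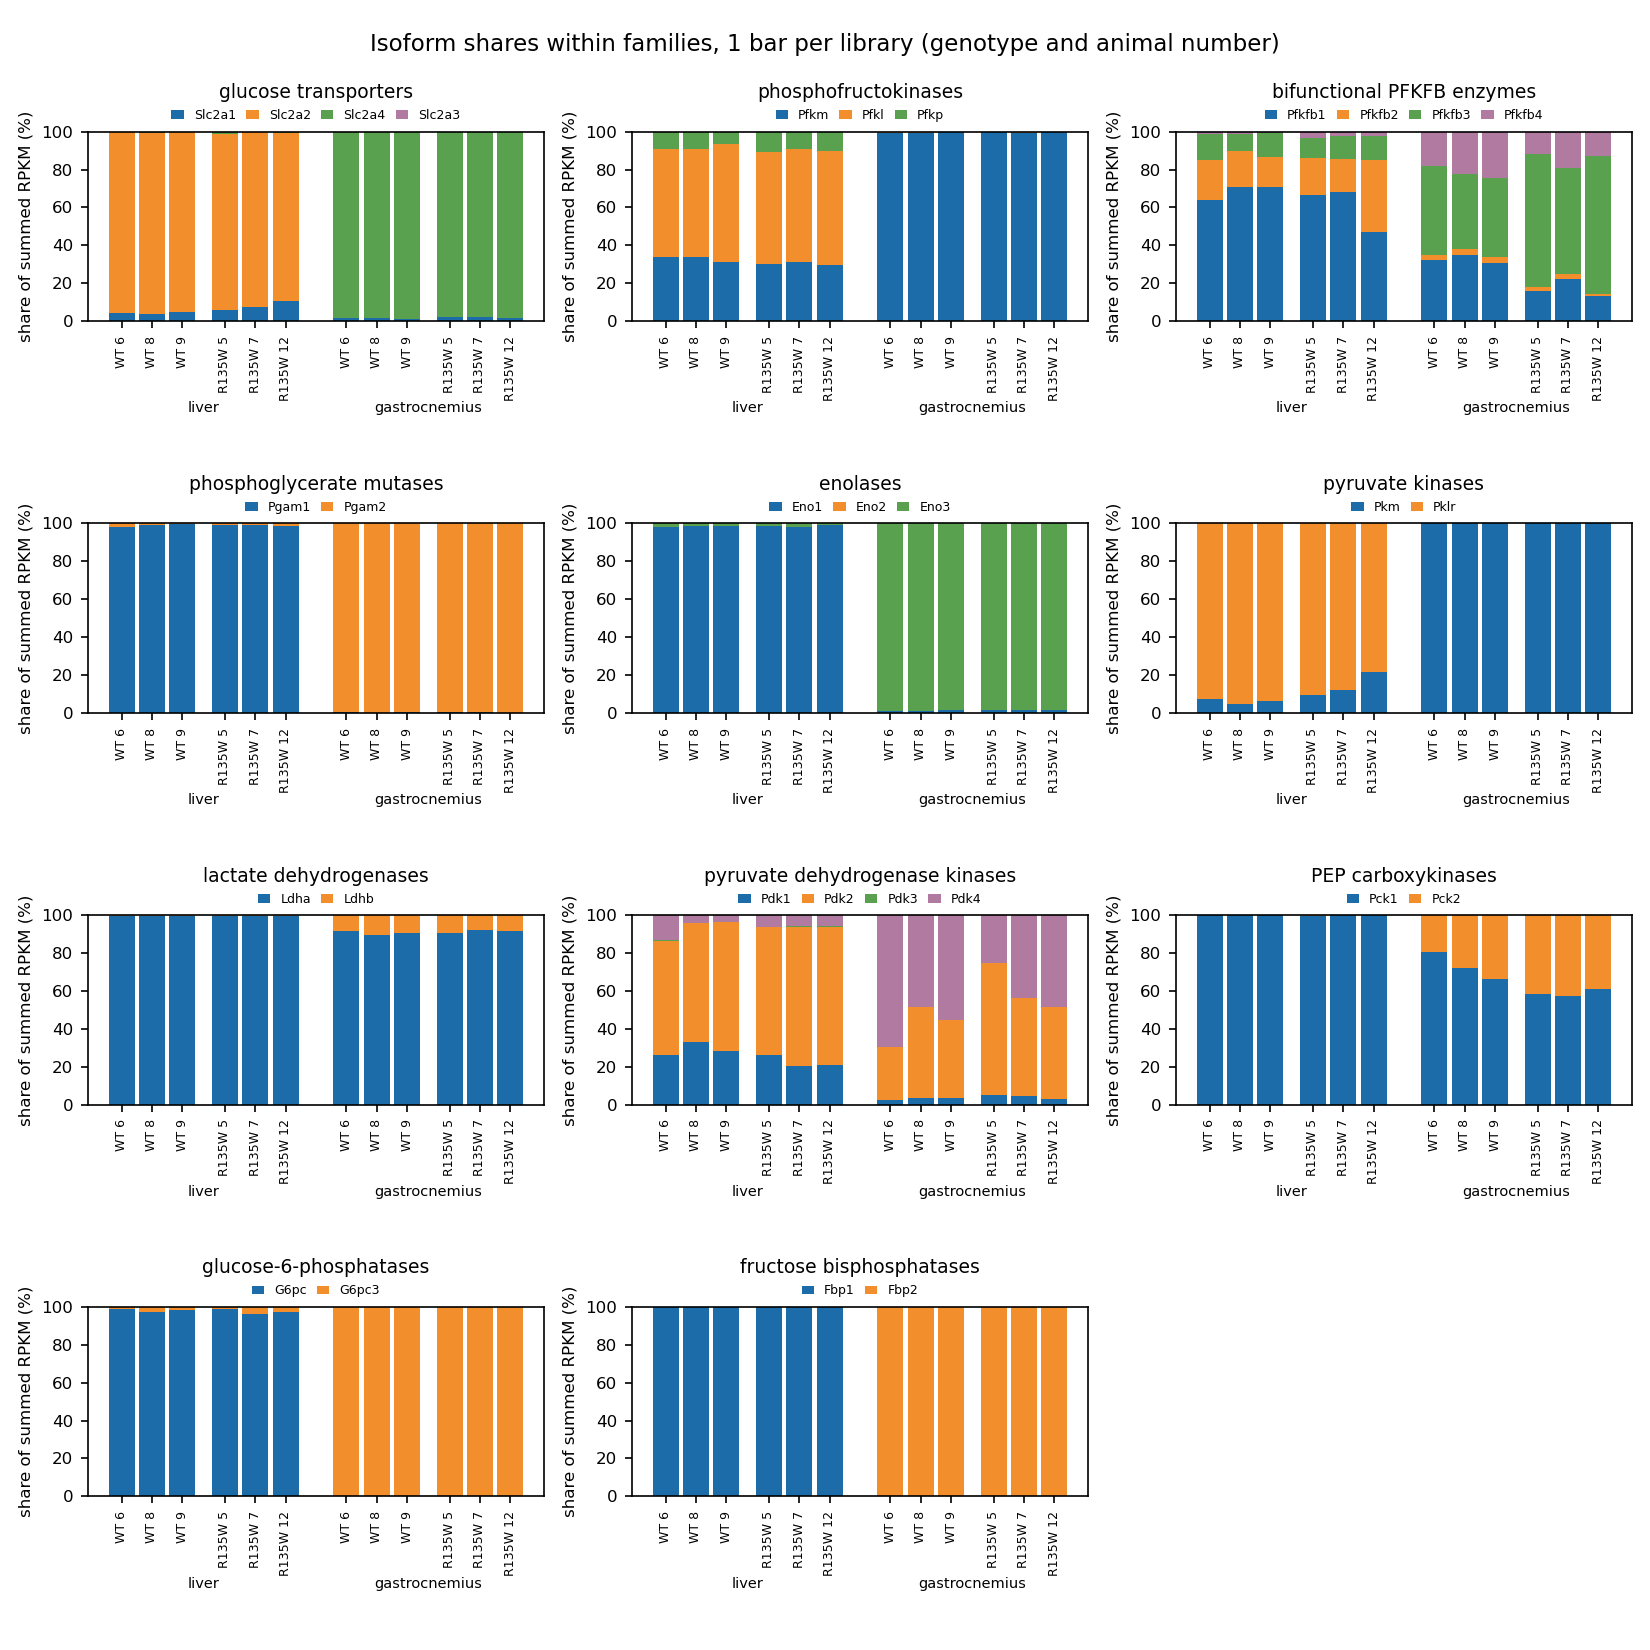
Share of each isoenzyme in the summed RPKM of its family (%, vertical axis), 1 stacked bar per library, with liver libraries on the left of each panel and gastrocnemius on the right. The bars change colour between the tissues in most panels, as for Pgam1 and Pgam2, while within a tissue the largest moves by genotype are in the muscle panels of the PFKFB enzymes, the pyruvate dehydrogenase kinases and the PEP carboxykinases.

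Glucose enters hepatocytes through Slc2a2 (GLUT2, a carrier of low affinity) and muscle fibres through Slc2a4 (GLUT4, moved to the surface by insulin), while Slc2a1 (GLUT1) is the widely used basal carrier. Slc2a2 was at 84.2, 124 and 112 RPKM in the WT livers and at 71.7, 70.2 and 61.8 RPKM in the R135W livers. It had 0 counts in the 3 WT muscle libraries, which puts liver at least 7110-fold higher against a floor of 3 counts over the group. Slc2a4 was at 206, 233 and 225 RPKM in WT muscle and at 219, 196 and 206 RPKM in R135W muscle, against 0.0668 to 0.764 RPKM in the livers. Slc2a2 made up 95.2% ± 0.390 (SD, n = 3) of glucose transporter RPKM in WT liver, and Slc2a4 98.1% ± 0.0751 in WT muscle. Slc2a1 was close in both tissues, at 4.09 to 7.42 RPKM in liver and 3.35 to 5.43 RPKM in muscle, and its log2 difference of 0.40 ± 0.19 (SE) in WT did not pass (adjusted p = 0.0641).

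Hexokinases phosphorylate glucose and so hold it in the cell. Hk2, the insulin-regulated hexokinase of muscle, was at 62.3, 77.6 and 79.9 RPKM in WT muscle and at 70.1, 67.1 and 71.8 RPKM in R135W muscle. Its log2 difference between tissues in WT was -7.97 ± 0.19 (edgeR, adjusted p = 3.24e-13). Hk1, the general hexokinase, stayed at 0.728 to 2.50 RPKM in all 12 libraries and was 2.04-fold higher in WT muscle than in WT liver (adjusted p = 0.000208).

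The phosphofructokinases, which commit sugar to glycolysis, were mixed in liver and nearly pure in muscle. Pfkm, the muscle subunit, was at 1259, 1369 and 1272 RPKM in WT muscle and at 1397, 1247 and 1413 RPKM in R135W muscle, and held 99.5% ± 0.0553 of the family in WT. In WT liver Pfkl, the liver subunit, was at 10.4, 9.17 and 12.8 RPKM, and in R135W liver at 12.5, 12.7 and 13.8 RPKM. Pfkl held 58.8% ± 3.21 of the family in WT liver, Pfkm 33.0% ± 1.66 and Pfkp, the platelet subunit, 8.27% ± 1.56. Summed over the 3 subunits, the family was at 18.3 ± 2.13 RPKM in WT liver and 1307 ± 60.7 RPKM in WT muscle.

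The middle of the pathway followed the same order. Aldoa, the muscle aldolase, reached 7409.8, 7952 and 6878 RPKM in WT muscle and 8034, 7337 and 8700.2 RPKM in R135W muscle, the highest levels of any listed gene, while in liver it was at 36.4 to 48.3 RPKM. Aldoc, the brain form, was low in both, at 3.20 to 9.22 RPKM in liver and at most 0.268 RPKM in muscle. For steps with 1 enzyme in common use, both tissues drew on the same gene at different levels. Gpi1, which turns glucose 6-phosphate into fructose 6-phosphate, was 5.62-fold higher in WT muscle than in WT liver, Tpi1, which interconverts the triose phosphates, 6.97-fold, Gapdh, the step that makes NADH, 6.61-fold, and Pgk1, the first step to make ATP, 4.42-fold. All 4 passed (edgeR, adjusted p from 3.39e-10 to 2.26e-09).

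Phosphoglycerate mutase was split almost wholly by tissue. Pgam1, the general form, was at 40.8, 41.5 and 52.5 RPKM in WT liver and at 47.1, 47.1 and 59.1 RPKM in R135W liver. Pgam2, the muscle form, was at 1829, 1755 and 1651 RPKM in WT muscle and at 1923, 1892 and 1959 RPKM in R135W muscle. Pgam1 held 98.9% ± 0.582 of the family in WT liver and Pgam2 held 99.7% ± 0.0203 in WT muscle, where the Pgam2 level was 3607-fold that of WT liver. Enolase, the next enzyme, was split the same way. Eno1 was at 236, 235 and 264 RPKM in WT liver and at 289, 238 and 253 RPKM in R135W liver, and Eno3, the muscle enolase, at 3732, 3662 and 3298 RPKM in WT muscle and at 3814, 3588 and 4053 RPKM in R135W muscle. Eno1 shares 92.8% of its exon length with Eno1b in the annotation, and a fragment was counted for each gene it overlaps, so its level is uncertain as to which copy it came from.

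Pyruvate kinase, the last step, was Pklr in liver, a form switched on by carbohydrate feeding, and Pkm in muscle. Pklr was at 120, 123 and 117 RPKM in WT liver and at 139, 98.7 and 52.6 RPKM in R135W liver, where animal 12 was the lowest. In the 3 WT muscle libraries it had 2 counts in all, a ratio of liver to muscle of 13100 with a 95% exact counting interval of 3630 to 108000. Pkm was at 1669, 1844 and 1703 RPKM in WT muscle and at 1850.1, 1760.4 and 1991 RPKM in R135W muscle. The counts are per gene and do not separate the M1 and M2 splice forms of Pkm.

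Lactate dehydrogenase converts pyruvate to lactate and back. Ldha, the subunit that favours lactate, led in both tissues, at 413, 282 and 317 RPKM in WT liver and 2097, 1959 and 1794 RPKM in WT muscle. In R135W it was at 367, 331 and 349 RPKM in liver and at 2031, 1976 and 2083 RPKM in muscle. Ldhb, the heart subunit, held 0.499% ± 0.0321 of the family in WT liver and 9.46% ± 1.19 in WT muscle.

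The bifunctional PFKFB enzymes set the level of fructose 2,6-bisphosphate, an activator of phosphofructokinase, and the pyruvate dehydrogenase kinases shut pyruvate out of the citric acid cycle. Pfkfb1 led in WT liver with 68.4% ± 3.91 of its family and Pfkfb3 in WT muscle with 42.6% ± 3.71, where Pfkfb1 held 32.7% ± 2.02 and Pfkfb4 21.7% ± 3.25. No other family had a lower share for its leading isoenzyme in WT muscle. Pdk2 was at 31.6, 51.4 and 44.2 RPKM in WT liver and at 38.0, 46.7 and 33.2 RPKM in R135W liver, 63.5% ± 4.03 of the family in WT. In WT muscle Pdk4, which rises in fasting, held 57.8% ± 10.7 and Pdk2 39.1% ± 10. Pdk1 did not differ between the tissues past the threshold, with a log2 difference of 0.19 ± 0.21 in WT (adjusted p = 0.411).

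Among the parts of the list, gluconeogenesis had the highest median log2 difference, liver minus gastrocnemius, at 4.62 in WT and 4.86 in R135W. Of its 6 genes, 5 were called higher in liver in both genotypes and Fbp2 was called lower. Over all tested genes, 40.9 percent in WT and 41 percent in R135W were called higher in liver. Genes of other parts, among them Slc2a2 and Pklr, were also called higher there. Pck1, the cytosolic PEP carboxykinase, was at 1425, 1215 and 1519 RPKM in WT liver and at 625, 1089.8 and 1310.2 RPKM in R135W liver. G6pc, the phosphatase that releases free glucose, was at 450.2, 192 and 291 RPKM in WT liver and at 360.4, 204 and 175 RPKM in R135W liver. Fbp1, the liver fructose bisphosphatase, was at 443, 613 and 628 RPKM in WT liver and at 541, 479.6 and 704 RPKM in R135W liver. Each of these genes was abundant in every liver, and R135W animal 5 had the lowest Pck1. G6pc had 2 counts in all in WT muscle, a ratio of 27200 with a 95% exact counting interval of 7530 to 225000, and G6pc3, the widely used phosphatase outside the list, led there at 24.0, 26.2 and 24.0 RPKM. In R135W muscle G6pc3 was at 26.9, 24.9 and 27.9 RPKM. Fbp2, the muscle form, was at 61.7, 50.7 and 42.7 RPKM in WT muscle and at 58.6, 49.6 and 73.4 RPKM in R135W muscle. Pcx, pyruvate carboxylase, which also refills the citric acid cycle, was 1.83-fold higher in WT liver than in WT muscle (adjusted p = 0.003), and Pck2, the mitochondrial PEP carboxykinase, 1.36-fold (adjusted p = 0.0303). Of the 6 muscle libraries, that of R135W animal 12 had the highest values of Slc2a2 (0.0447 RPKM), Pklr (0.0819 RPKM), G6pc (0.119 RPKM) and Fbp1 (0.310 RPKM), and also the highest hepatocyte markers. The part of liver RNA in these values was not tested.

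**Figure D2:**
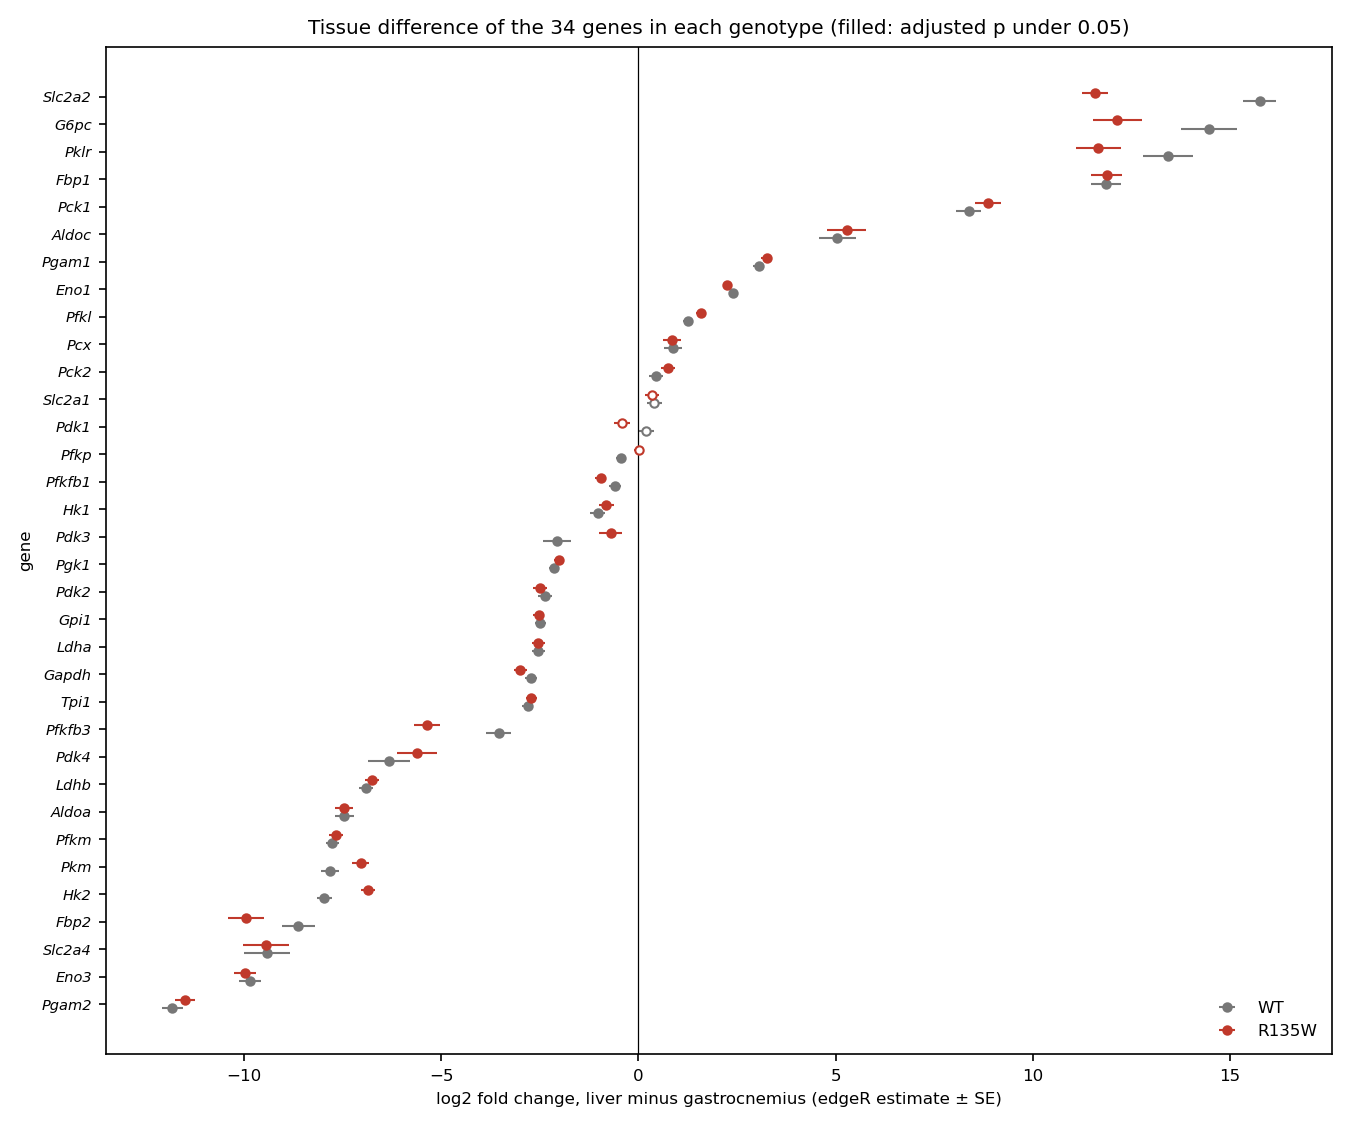
Log2 fold change, liver minus gastrocnemius (horizontal axis, edgeR estimate ± SE), for each of the 34 genes in WT (grey) and R135W (red), with open circles where the adjusted p was 0.05 or more. In both genotypes Pgam2 stands at the muscle end and Slc2a2, G6pc, Pklr and Fbp1 fill the liver end, in an order that differs between the genotypes, and the estimates of Slc2a2, G6pc and Pklr, with few or no counts in muscle, depend on the prior count and are no measure of size.

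By genotype the liver differed in 1 gene of the list. Pkm, the pyruvate kinase of muscle and of many proliferating and immune cells (chr9:59656368-59679375, mm10, plus strand), rose 1.82-fold in R135W liver. It was at 9.55, 5.80 and 7.88 RPKM in WT and at 14.5, 13.5 and 14.5 RPKM in R135W. The groups did not overlap, and the log2 fold change was 0.86 ± 0.17 (edgeR quasi-likelihood test, adjusted p = 0.0348 over 13935 genes). The call rested on the full set of libraries: it was kept without WT animal 6 and lost when WT animal 8 or 9 or R135W animal 5, 7 or 12 was left out (adjusted p from 0.0669 to 0.126), with log2 fold changes of 0.69 to 1.04. It was also lost with age as a covariate (adjusted p = 0.0674).

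Of the 34 genes, 32 passed the filter on low counts in liver, and Pdk3 and Fbp2 did not. The percentage called over all tested genes was 3.28, with 2.76 higher and 0.524 lower, and 1 of 32 is 3.12%, a share near that of all genes. DESeq2 called 4, Slc2a2, Hk2, Pkm and Pfkfb1, where it called 5.6 percent of all tested genes. At an unadjusted p under 0.05 there were 7 of 32 genes (21.9%) against 17.6 percent of all tested genes. The groups did not overlap in 8 of 32 (25%) against 23.7 percent. The median log2 fold change was 0.04 over the 32 genes and -0.01 over all tested genes.

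Besides Pkm, 2 further isoenzymes of glycolysis had an unadjusted p under 0.05, both with higher values in R135W liver, and neither passed after adjustment. Hk2 was at 0.287, 0.311 and 0.280 RPKM in WT and at 0.519, 0.770 and 0.527 RPKM in R135W, a log2 fold change of 1.03 ± 0.23 (adjusted p = 0.0529). Pfkp was at 1.67, 1.49 and 1.32 RPKM in WT and at 2.26, 1.91 and 2.30 RPKM in R135W, with a log2 fold change of 0.53 ± 0.15 (adjusted p = 0.119). The groups did not overlap for either gene. Pkm and Pfkp are minor isoenzymes in liver, where Pklr and Pfkl lead their families. Outside the list, Hk3, a hexokinase of myeloid cells, was the 1 of 10 tested further isoenzymes called (10%). Of all tested genes, 2.76 percent were called higher. Hk3 rose from 5.496, 5.63 and 7.36 CPM to 13.4, 17.4 and 15.5 CPM, a log2 fold change of 1.32 ± 0.17 (adjusted p = 0.00904). Of the 10, 6 had log2 fold changes above 0 and 4 below. At an unadjusted p under 0.05 there were 2 (20%), both with higher values in R135W, against 17.6 percent of all tested genes.

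Markers of macrophages moved with these genes. Of 18 macrophage markers, 14 (77.8%) were called higher in R135W liver, against 2.76 percent of all tested genes. Of the 18, 17 had log2 fold changes above 0. The other, Cd163, had a mean of 16.2 CPM in WT liver and 11.9 CPM in R135W liver. Summed, the 18 markers were at 479.4 to 696 CPM in WT liver against 1225 to 1276 CPM in R135W liver. No marker was at 0 in either group. Clec4f, a marker of liver-resident macrophages, was at 137, 87.1 and 149.8 CPM in WT and at 231, 247 and 218 CPM in R135W. The part of these cells in the values of Pkm, Hk2, Pfkp and Hk3 was not tested.

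In 4 genes with an unadjusted p under 0.05 the values were lower in R135W liver, and none passed after adjustment. Slc2a2, with the values given above, had a log2 fold change of -0.66 ± 0.16 (adjusted p = 0.0690), and every R135W liver was below every WT liver. Pfkfb1 was at 16.4, 22.0 and 26.7 RPKM in WT and at 13.04, 13.7 and 11.4 RPKM in R135W, again without overlap, a log2 fold change of -0.78 ± 0.18 (adjusted p = 0.0559). Pfkfb3 was at 3.51, 2.77 and 4.63 RPKM in WT and at 2.10, 2.46 and 3.02 RPKM in R135W. Its groups overlapped and its log2 fold change was -0.53 ± 0.21 (adjusted p = 0.230). Pdk1 was at 13.9, 27.4 and 18.4 RPKM in WT and at 14.9, 13.03 and 9.47 RPKM in R135W, also with overlap, a log2 fold change of -0.68 ± 0.25 (adjusted p = 0.211). The other 25 tested genes had log2 fold changes from -0.47 (Pck1) to 0.44 (Hk1), and the 5 tested genes of gluconeogenesis were all among them. The summed hepatocyte markers, given above, were also lower in every R135W liver than in every WT liver. Most of that sum was Alb, with means of 66081 CPM in WT liver and 54855 CPM in R135W liver. Taken singly, 2 of the 8 markers did not overlap between the genotypes, and Cps1 and Tat had higher means in R135W. Of the 8, 6 had log2 fold changes below 0 (median -0.22), 1 had an unadjusted p under 0.05 and 0 passed in edgeR, and their part in the lower values of Slc2a2 and Pfkfb1 was not tested. With SEs of 0.11 to 0.85 in the 25 genes, changes of this size could not be told from none.

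**Figure D3:**
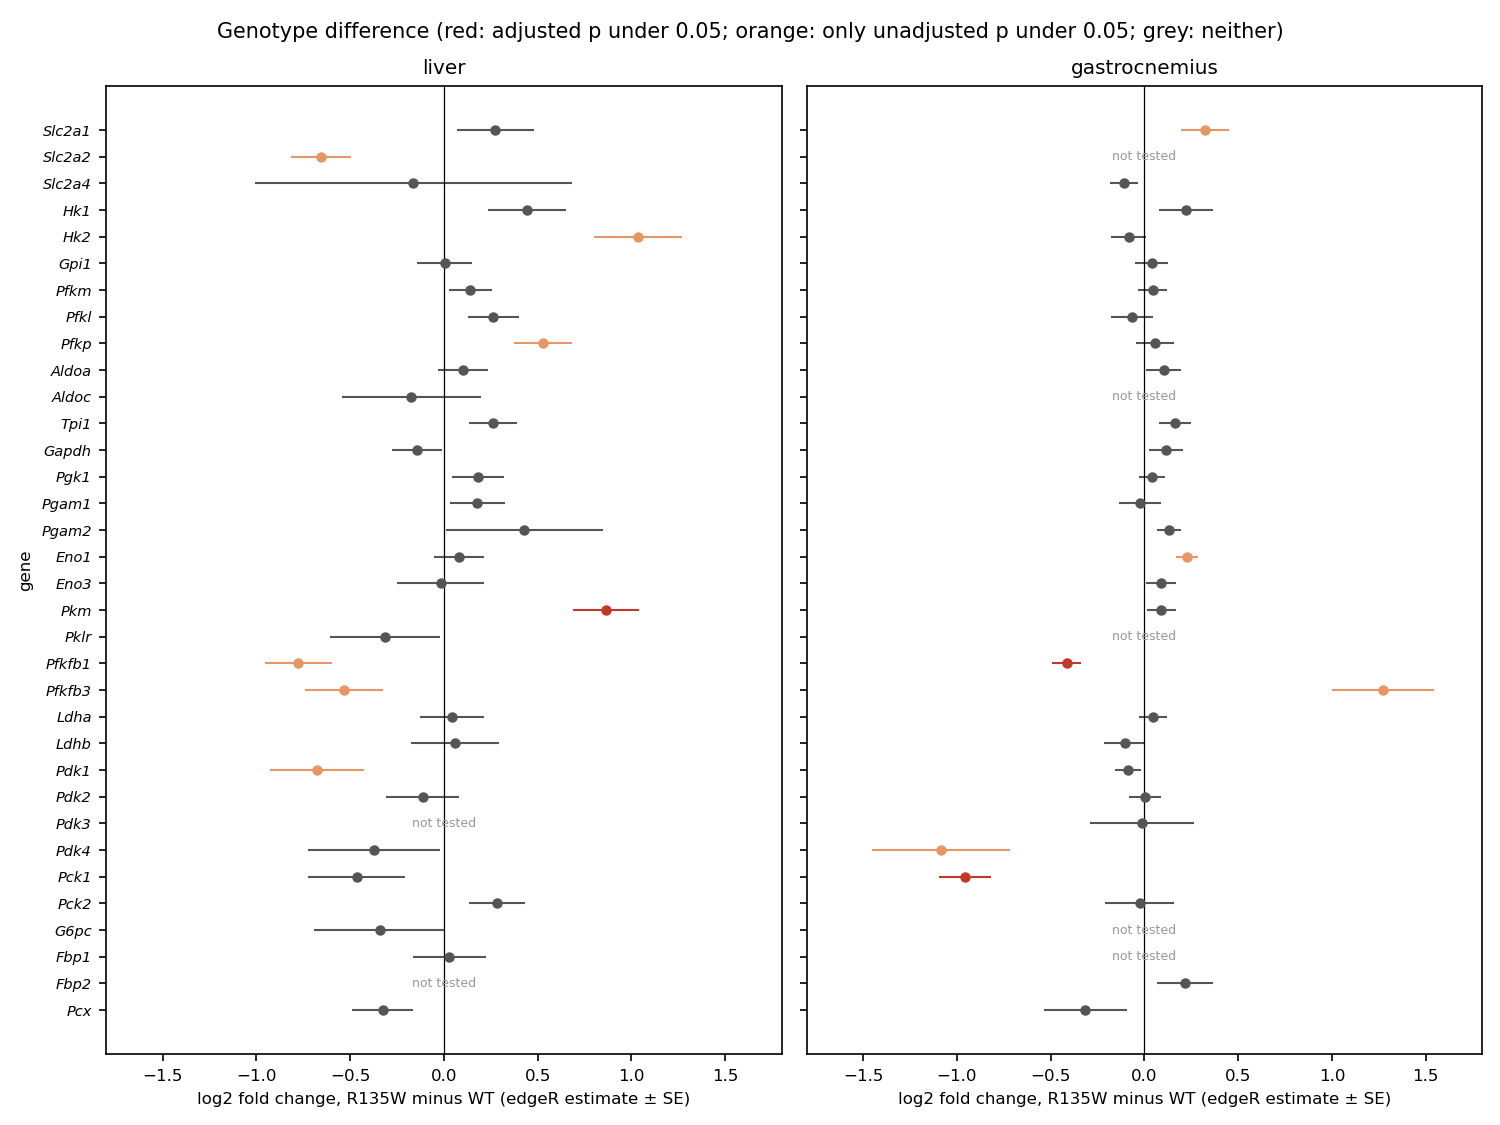
Log2 fold change, R135W minus WT (horizontal axes, edgeR estimate ± SE), for the 34 genes in liver (left) and gastrocnemius (right), coloured by whether the adjusted p, only the unadjusted p or neither was under 0.05. Pkm stands at 0.86 in liver, Pck1 at -0.96 and Pfkfb1 at -0.41 in gastrocnemius, and most other genes lie near 0.

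In gastrocnemius 2 genes of the list fell in R135W, Pck1 and Pfkfb1. Pck1 (chr2:173153073-173159253, mm10, plus strand) was at 5.03, 3.56 and 3.93 RPKM in WT and at 2.03, 2.18 and 2.27 RPKM in R135W. Every R135W muscle was below every WT muscle, and the log2 fold change was -0.96 ± 0.14, or 1.94-fold lower (edgeR, adjusted p = 0.0280 over 13826 genes). Pfkfb1 (chrX:150589921-150643878, mm10, plus strand), whose muscle transcript comes from the same gene as the liver form, was at 32.8, 33.7 and 31.3 RPKM in WT and at 25.6, 21.9 and 26.5 RPKM in R135W. The groups did not overlap, and the log2 fold change was -0.41 ± 0.08 (adjusted p = 0.0488). The Pfkfb1 call was lost whichever of the 6 libraries was left out (adjusted p from 0.0720 to 0.240), and the Pck1 call was lost without WT animal 8 (0.0526) or 9 (0.0698) or R135W animal 7 (0.0833) or 12 (0.0612). In a fit of all 12 libraries neither passed (adjusted p = 0.283 for Pck1 and 0.622 for Pfkfb1).

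Of the 34 genes, 29 passed the filter in gastrocnemius, and Slc2a2, Aldoc, Pklr, G6pc and Fbp1 did not. The percentage called over all tested genes was 0.875, with 0.542 higher and 0.333 lower, and 2 of 29 is 6.9%. At an unadjusted p under 0.05 there were 6 of 29 (20.7%) against 11.5 percent of all tested genes, and the groups did not overlap in 6 of 29 (20.7%) against 16.2 percent. The median log2 fold change was 0.04 over the 29 genes and 0.00 over all tested genes.

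The largest log2 fold change by genotype among the tested genes of the list was that of Pfkfb3 in muscle (chr2:11471431-11553929, mm10, minus strand), and it did not pass. Pfkfb3 was at 47.4, 38.2 and 42.1 RPKM in WT and at 112, 54.8 and 144 RPKM in R135W. Every R135W muscle was above every WT muscle, and R135W animal 7 was well below the other two. The log2 fold change was 1.27 ± 0.27 (edgeR, adjusted p = 0.0779). When 1 library was left out, Pfkfb3 passed in 1 of 6 fits, that without R135W animal 7 (1.58, adjusted p = 0.00471). The other fits had adjusted p up to 0.333, and without R135W animal 12 the log2 fold change was 0.98 (adjusted p = 0.183). In the fit of all 12 libraries Pfkfb3 did not pass (adjusted p = 0.132). With DESeq2, which called 1.98 percent of all tested genes in gastrocnemius, it passed on all 6 libraries (adjusted p = 0.0325). The share of Pfkfb3 in its family was 42.6% ± 3.71 in WT and 66.1% ± 9.18 in R135W, and that of Pfkfb1 was 32.7% ± 2.02 and 17.2% ± 4.58.

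Pdk4 was at 503, 242 and 285 RPKM in WT muscle and at 79.0, 167 and 245 RPKM in R135W muscle. R135W animal 12 was above WT animal 8, so the groups overlapped, and the log2 fold change of -1.09 ± 0.37 did not pass (adjusted p = 0.287). Eno1 was at 44.6, 46.7 and 47.5 RPKM in WT and at 54.6, 53.3 and 56.0 RPKM in R135W, apart in every library, a log2 fold change of 0.23 ± 0.06 (adjusted p = 0.147). Slc2a1 was at 3.60, 4.18 and 3.35 RPKM in WT and at 5.43, 4.41 and 4.21 RPKM in R135W, also without overlap, a log2 fold change of 0.32 ± 0.13 (adjusted p = 0.371). The other 23 tested genes had log2 fold changes from -0.31 (Pcx) to 0.22 (Hk1), with SEs of 0.06 to 0.28. Those of Slc2a4, Hk2, Pfkm, Aldoa, Gapdh, Pgam2, Eno3, Pkm and Ldha, the main muscle forms, were among them.

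Marker levels in muscle were as follows. Adipocyte markers summed to 221 to 237 CPM in WT muscle against 215 to 248 CPM in R135W muscle. Most of that sum was Fabp4 (means of 119 CPM in WT and 126 CPM in R135W) and Cfd (69.3 and 76.8 CPM). Adipoq, Plin1, Lep, Retn and Cidec had lower means in R135W, so the sum does not speak for them. In edgeR 0 of 7 passed, and 2, Lep and Cidec, had an unadjusted p under 0.05, both with lower values in R135W. Of the 7, 5 had log2 fold changes below 0 and 2 above, with a median of -0.33. Slow fibre markers summed to 1661 to 1913 CPM in WT muscle against 1251 to 1700.3 CPM in R135W muscle, and 0 of 6 passed, with 4 at an unadjusted p under 0.05, all with lower values in R135W. Endothelial markers summed to 261 to 291 CPM in WT muscle against 330.1 to 359 CPM in R135W muscle, and Kdr, the receptor for VEGF, rose (log2 fold change 0.77 ± 0.08, adjusted p = 0.00918). It was the 1 of 7 endothelial markers that passed, where 0.875 percent of all tested genes were called. Of the 7, 6 (85.7%) had an unadjusted p under 0.05, all with higher values in R135W. At that p the shares were 28.6% of adipocyte and 66.7% of slow fibre markers, against 11.5 percent of all tested genes. The summed endothelial levels did not overlap. The groups stood apart in 5 of the 7 endothelial markers, against 16.2 percent of all tested genes. No marker of these 3 lists was at 0 in a group of muscle libraries. The part of these cells and fibres in the values of Pck1, Pfkfb1, Pfkfb3 and Pdk4 was not tested.

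**Figure D4:**
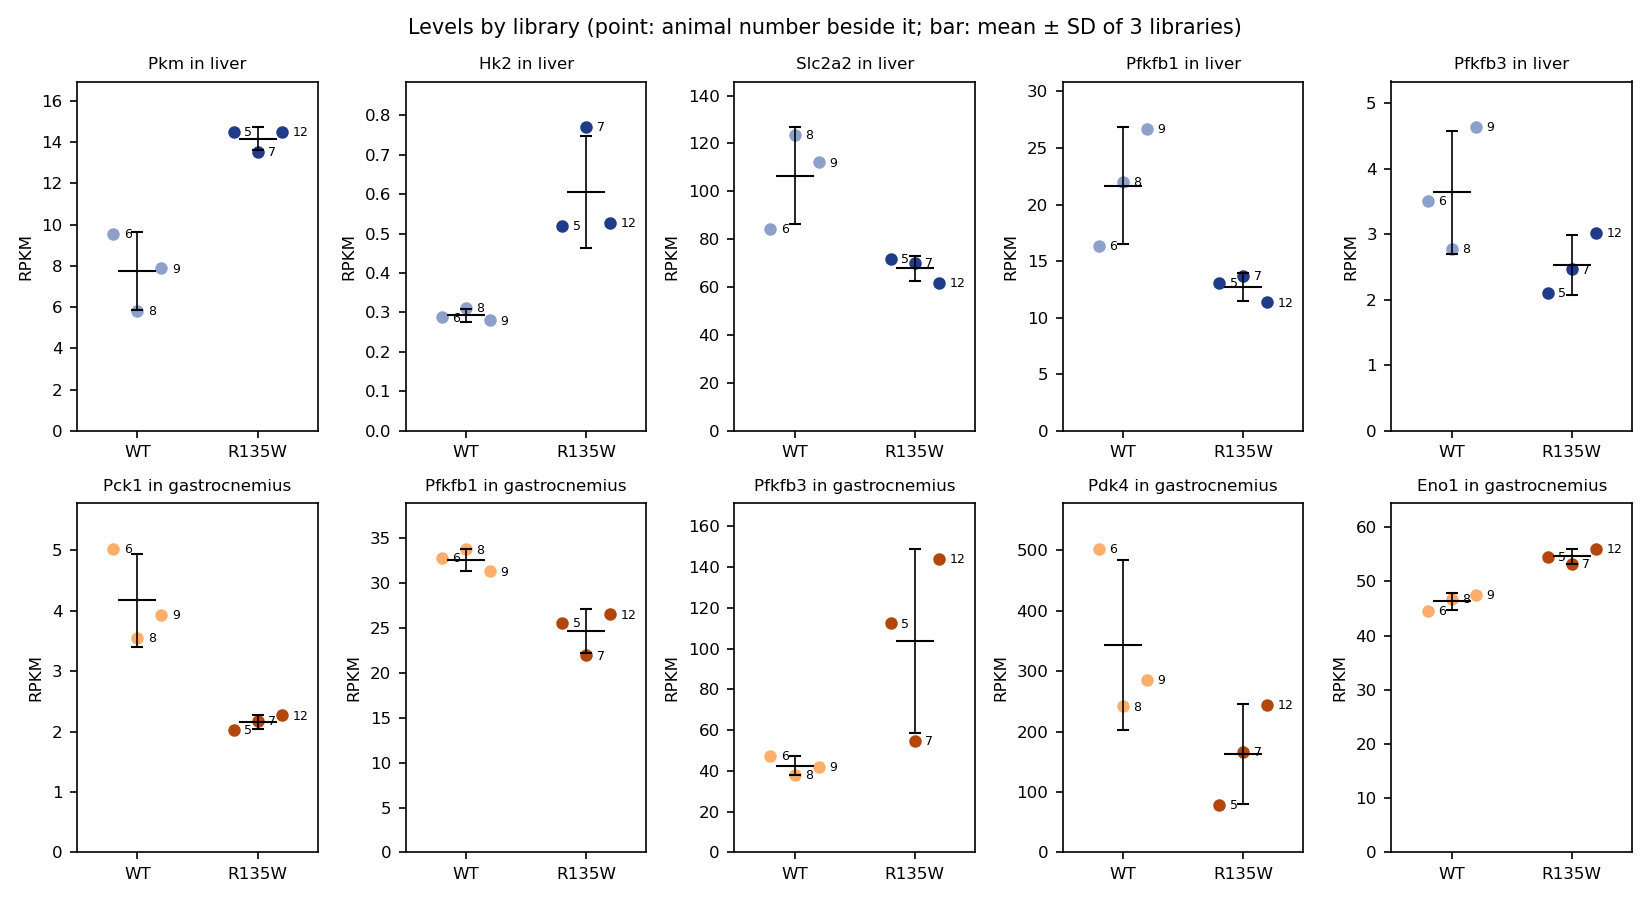
RPKM (vertical axes, linear from 0) of 5 genes in liver and 5 in gastrocnemius, 1 point per library with the animal number, and the mean ± SD of 3 libraries. The WT and R135W points stand apart for Pkm, Hk2, Slc2a2 and Pfkfb1 in liver and for Pck1, Pfkfb1, Pfkfb3 and Eno1 in gastrocnemius, and mix for Pfkfb3 in liver and Pdk4 in gastrocnemius.

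None of the 34 genes passed the test of whether the genotype difference itself differed between the tissues (interaction in edgeR over 12 libraries and 15414 genes). The percentage called over all genes was 0.13. DESeq2 called 3 of the 34, Pfkfb3, Hk2 and Pkm, where it called 1.19 percent of all genes, and limma-voom called 0, with 0.0454 percent of all genes. At an unadjusted p under 0.05 edgeR had 6 of 34 (17.6%) against 9.95 percent of all tested genes: Slc2a2, Hk2, Pfkp, Pkm, Pfkfb3 and Pdk3. Pfkfb3 had a log2 difference, liver effect minus gastrocnemius effect, of -1.81 ± 0.41 (adjusted p = 0.124), with lower values in R135W liver and higher values in R135W muscle. Hk2 had 1.10 ± 0.23 (adjusted p = 0.101), Pkm 0.77 ± 0.24 (adjusted p = 0.300) and Pfkp 0.47 ± 0.18 (adjusted p = 0.395). Pdk3 had 1.36 ± 0.47 (adjusted p = 0.348) at levels of 0.0735 to 0.454 RPKM. For Slc2a2, at or near 0 counts in muscle, the value has no meaning as a size. Thus Pkm passed in liver and Pck1 and Pfkfb1 in muscle, but no difference between the tissues was shown by edgeR for any of these, and Pfkfb1 had lower values in R135W in both.

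Isoenzyme shares by genotype were compared with an exact two-sided permutation test of 3 against 3, whose smallest p is 0.1. Of 30 shares, 10 reached that p in liver and 9 in gastrocnemius, and after Benjamini-Hochberg adjustment over the 30 the smallest were 0.3 and 0.333. In liver the share of Pkm in pyruvate kinase was 7.35%, 4.51% and 6.31% in WT and 9.44%, 12.1% and 21.6% in R135W. Animal 12 had the highest of these shares and also the lowest Pklr level. Pck1 held 80.6%, 72.2% and 66.4% of PEP carboxykinase RPKM in WT muscle and 58.3%, 57.3% and 61.0% in R135W muscle, with Pck2 as the rest. Pdk4 led in each of the 3 WT muscles and in R135W animal 12, where it held 48.5% against 48.3% for Pdk2, while Pdk2 led in R135W animals 5 and 7. None of these designs can pass 0.05.

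Neighbouring pathways were read from lists of gene symbols. A list of 25 genes held carriers of pyruvate and lactate, pyruvate dehydrogenase and its phosphatases, transaminases, genes of the shuttles that carry electrons into mitochondria, and Slc37a4, the transporter that brings glucose 6-phosphate to G6pc. Of these, 0 passed in edgeR in either tissue, with 7 in liver (28%) and 5 in gastrocnemius (20%) at an unadjusted p under 0.05, all with lower values in R135W, against 17.6 and 11.5 percent of all tested genes. The 2 subunits of the mitochondrial pyruvate carrier were in both sets: Mpc1 had log2 fold changes of -0.31 ± 0.13 in liver and -0.19 ± 0.06 in gastrocnemius, and Mpc2 -0.41 ± 0.13 and -0.16 ± 0.06, with adjusted p from 0.155 to 0.319. The 7 in liver included Slc37a4 (-0.77 ± 0.18, adjusted p = 0.0609). Of glycogen genes 0 of 17 passed in liver and 0 of 18 in gastrocnemius. At an unadjusted p under 0.05 there were 2 in each (11.8% and 11.1%), against 17.6 and 11.5 percent of all tested genes. Gys2, the liver glycogen synthase, was lowest in p in liver (-0.77 ± 0.17, adjusted p = 0.0527). Of the 8 genes of the pentose phosphate pathway 0 passed in either tissue, with 4 in liver (50%) and 1 in gastrocnemius (12.5%) at an unadjusted p under 0.05. The 4 in liver were split, 2 with higher and 2 with lower values in R135W, and the 1 in gastrocnemius had lower values. Median log2 fold changes in liver were -0.12 for the list of 25, -0.14 for glycogen and -0.11 for the pentose phosphate pathway, against -0.01 for all tested genes.

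Of 19 listed regulators of glucose metabolism, 18 were matched in the files. In this set, 0 of 18 tested passed in liver, with 2 (11.1%) at an unadjusted p under 0.05 against 17.6 percent of all tested genes. In gastrocnemius 2 of 14 tested passed (14.3%) against 0.875 percent. The list was chosen with earlier results of these data known, so these shares do not test the regulators as a set. Foxo1, a transcription factor restrained by insulin whose known targets include Pck1, G6pc and Pdk4, was at 69.8, 87.3 and 62.8 CPM in WT muscle and at 19.5, 18.8 and 27.3 CPM in R135W muscle. It fell by 1.76 ± 0.15 on the log2 scale (adjusted p = 0.00586), without overlap. Irs1, which carries the signal of the insulin receptor, was at 91.2, 79.4 and 91.4 CPM in WT muscle and at 168, 156 and 139.6 CPM in R135W muscle, a rise of 0.81 ± 0.09 on the log2 scale (adjusted p = 0.0102). In liver the log2 fold change of Foxo1 was 0.04 ± 0.26 and that of Irs1 0.14 ± 0.12, with adjusted p of 0.953 and 0.603. These values were set beside those of Pck1 and Pdk4 in the same 6 muscles, and a link between them was not tested.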

How the data were processed

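Poly(A) RNA of 12 libraries was sequenced as paired reads. The deposited files hold raw counts: per the file headers, the authors ran featureCounts 1.5.2 on read pairs against the UCSC exons of mm10, summed by gene symbol, unstranded, and counting overlapping genes each in full. The submitters' processing notes name STAR 2.4.0. Without strand, reads of a gene and of an antisense partner cannot be told apart.

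RPKM were computed here from counts, TMM-scaled library sizes of all 12 libraries and the exon lengths in the files, CPM from the same library sizes except those of Mars2, which use total counts. Genotype was tested within a tissue with edgeR 4.0.16 (R 4.3.3): TMM, filterByExpr, quasi-likelihood F test, and p-values adjusted by Benjamini-Hochberg over every tested gene, called under 0.05. Tissue and interaction were tested in 1 fit of 12 libraries. SE is the log2 fold change over the square root of F. The labels give 1 animal per library of a tissue. The same animal numbers in both tissues pair the samples. Same-animal correlations of deviations from the group means were -0.00662 to 0.0865, and the animal was a block in an alternative fit. Replicate pairs all differed by more than sampling noise (chi-squared over its degrees of freedom 8.07 to 118).

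Per-library values were printed for called genes, for genes at an unadjusted p under 0.05 and for the leading isoenzyme of each family and tissue, and others by range. From other lists the called genes are named, and Gys2, Slc37a4, Mpc1, Mpc2, Lep, Cidec, Clec4f and Cd163 were chosen after their values were seen, as were the motifs. Isoenzyme shares of hexokinases and aldolases are not reported here. The genes and lists were chosen with earlier results of these data known. The tests were checked on simulated data, where false calls made up 5.59% of calls in liver, 8.29% in gastrocnemius and 7.3% in the interaction. In the same order, 58%, 89% and 48% of simulated 2-fold changes were recovered, and 94%, 99% and 79% of 4-fold changes. Alternatives were RLE factors, other filters, DESeq2 1.42.0, limma-voom (limma 3.58.1), age, all 12 libraries, the animal block, a minimum 2-fold change and leaving out libraries.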

Additional observations from a re-analysis of the deposited data

How the results depend on the processing

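Counts of called genes in the list moved with the processing, while none of the 19 log2 fold changes recomputed, those of listed genes at an unadjusted p under 0.05, changed its sign. The genes named outside the list were not recomputed. In liver the count was 1 and became 3 with no filter on low counts, 2 with a stricter filter, 4 with DESeq2, 5 in the fit of all 12 libraries, 0 with age as a covariate (Pkm, adjusted p = 0.0674) and 0 to 3 when 1 library was left out. In gastrocnemius the count was 2 and became 3, with Pfkfb3, under no filter, DESeq2 or age as a covariate, 1 with the stricter filter, 1 with limma-voom, 0 in the fit of all 12 libraries and 0 to 1 when 1 library was left out. The interaction count was 0 with edgeR and 3 with DESeq2. Calls over all tested genes moved as well. In liver they were 457 of 13935, then 532 of 18650 with no filter and 464 of 12799 with the stricter filter. DESeq2 called 781, the fit of all 12 libraries 1057 of 15414 and age as a covariate 274. In gastrocnemius they were 121 of 13826, then 172 of 19052 and 100 of 12504 with these filters. DESeq2 called 274 there, age as a covariate 153, limma-voom 96 and the fit of all 12 libraries 20 of 15414. Over these settings, leave-one-out aside, the adjusted p of Pkm in liver ran from 0.00066 to 0.0674, that of Pck1 in muscle from 4.63e-06 to 0.283 and that of Pfkfb1 in muscle from 0.002 to 0.622.

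Counts between tissues stayed within 27 to 33 in WT and 26 to 32 in R135W, and 8 to 9 families had different leading isoenzymes. With the animal as a replicate block in the fit of all 12 libraries, the interaction count was 0 and the tissue counts were 32 in WT and 31 in R135W. The block called Pdk1 and not Pdk3 in R135W and changed no other call there, and in a fit of the 6 WT libraries alone the count was 33, Slc2a1 included, with the block and without it. Leaving out the gastrocnemius library of R135W animal 12, chosen after seeing the data, left the interaction count at 0. With 3 animals a group, genes without a call may still differ, and genes with few counts, such as Hk2 and Pdk3 in liver, are the least certain.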
